A study of Homo sapiens with 2 samples.

Results

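Integrins and laminins were followed in HCC15 cells, a human lung cancer line, after knockdown of CTNNB1, the gene of beta-catenin. The set held every probe set of the deposited table whose single platform gene symbol names an integrin alpha or beta chain or a laminin alpha, beta or gamma chain, which gave 95 of 54675 probe sets and 35 of 19775 genes. Integrins made up 25 genes with 72 probe sets, and laminins 10 genes with 23 probe sets. Antisense transcripts, a laminin pseudogene, ITGBL1 and the integrin-binding proteins ITGB1BP1, ITGB1BP2 and ITGB3BP were left out. ITGB6 was left out because each of its 4 probe sets carries a second symbol.

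The series compared 2 cultures on expression arrays, 1 given a control siRNA and 1 given an siRNA against CTNNB1, both of the same line, both kept in RPMI medium with 5% serum and both collected 48 h after transfection. Its title places the work in CTNNB1-mutated lung cancer, so the control culture is one of a line studied for that mutation, and the labels call the line squamous. The control sample is titled with the word Tax, and what its siRNA targets is not stated in the labels. Each group was 1 array, so the values below have no replicate, no test between conditions was possible, and a difference between the siRNAs cannot be told apart from a difference between these 2 cultures or hybridisations.

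Integrins are receptors made of 1 alpha and 1 beta chain that hold cells to the extracellular matrix or to other cells and pass signals in both directions across the membrane. Laminins are trimers of 1 alpha, 1 beta and 1 gamma chain that form the sheet of basement membranes. Epithelial cells bind laminin mainly through receptors that pair ITGA3 or ITGA6 with ITGB1, and ITGA6 with ITGB4, the last being the receptor of hemidesmosomes. Beta-catenin joins cadherins to the cytoskeleton and, in the nucleus, acts with TCF/LEF factors on the promoters of Wnt target genes.

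Promoter windows were set beside the expression values because TCF/LEF factors and AP-1 bind short DNA words. RefSeq windows of 300 bases (GRCh38.p14, from 250 bases before to 50 bases after a transcript start) were at hand for 24 of the 35 genes. ITGA3 and ITGB2, whose brightest probe sets had the largest ratios, have no window among them. A TCF/LEF core (CTTTG, then 2 further bases that are each adenine or thymine, on either strand) lay in a window of 3 genes, ITGAM, ITGAV and LAMA2, against 13.8% of 35116 windows of all genes. An AP-1 word (TGANTCA, the same on both strands apart from its middle base) lay in a window of 2 genes, ITGA5 and LAMB3, against 7.71% of all windows. Some of the 24 genes have several windows, so these counts of genes and the shares of windows are unlike units. The words do not overlap in the windows shown, where capitals mark them and the bases run 5′ to 3′ on the gene's strand. LAMB3 is shown because it was the laminin with the largest ratio, ITGAV because its window holds 2 TCF/LEF cores, and ITGA1 because it was the bright integrin with the largest decrease.
LAMB3, chr1:209651325-209651624, minus strand: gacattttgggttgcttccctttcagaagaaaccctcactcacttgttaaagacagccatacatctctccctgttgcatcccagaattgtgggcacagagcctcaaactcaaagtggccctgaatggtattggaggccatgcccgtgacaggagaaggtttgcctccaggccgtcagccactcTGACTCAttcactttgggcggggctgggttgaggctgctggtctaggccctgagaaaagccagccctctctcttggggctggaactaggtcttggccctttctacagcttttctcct
ITGAV, chr2:186599955-186600254, plus strand: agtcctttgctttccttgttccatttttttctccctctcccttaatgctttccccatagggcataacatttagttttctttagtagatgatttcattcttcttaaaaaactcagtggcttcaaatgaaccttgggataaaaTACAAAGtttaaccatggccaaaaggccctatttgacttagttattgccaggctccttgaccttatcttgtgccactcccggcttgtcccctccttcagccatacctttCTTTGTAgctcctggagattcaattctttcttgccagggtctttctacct
ITGA1, chr5:52787666-52787965, plus strand: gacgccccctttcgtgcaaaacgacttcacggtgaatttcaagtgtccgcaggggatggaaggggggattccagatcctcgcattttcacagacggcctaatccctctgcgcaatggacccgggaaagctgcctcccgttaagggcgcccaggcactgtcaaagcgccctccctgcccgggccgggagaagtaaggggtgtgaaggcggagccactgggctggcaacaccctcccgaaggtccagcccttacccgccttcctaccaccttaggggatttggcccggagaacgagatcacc
The LAMB3 window belongs to 1 of 3 starts of that gene, and its AP-1 word begins 67 bases before the start. In ITGAV, 1 core begins 109 bases before the start and the other at the start itself, and the other window of that gene holds none. The ITGA1 window holds neither word. A match in a window describes letters only, and no binding was measured here.

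The deposited values are linear MAS5 signal intensities, and the array medians were 51.3 for control and 46.7 for CTNNB1 siRNA. Probe sets with a mean signal of at least 49.1, the overall median, entered the comparison, and signals under 13.8, the 25th percentile, were raised to that floor, which is not a detection limit. Each gene was read by its brightest entering probe set, and 12531 genes entered. The targeted CTNNB1 went from 1224 to 339 at its brightest probe set (201533_at), 27.7% of the control. Its 2 dimmer probe sets fell less, to 91.3% (223679_at, 129.7 and 118.4) and 51% (1554411_at, 89.8 and 45.8). With the median over probe sets its log2 ratio was -0.97, just short of 2-fold. Probe sets of the same gene differed with a pooled SD of 0.42 in log2 ratio over 5791 genes, and 0.29 where signals were at or above 209, the 75th percentile. The median log2 ratio of all genes was 0.15, and over signal deciles it ran from -0.23 in the dimmest to 0.28 and 0.27 in the brightest, so bright genes read higher on the CTNNB1 siRNA array as a whole. Of all genes 298 passed 2-fold downward and 287 upward, 4.67% in all, but these counts were 183 and 472 after scaling to a common median and 448 and 163 with the median ratio set to 0.

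The adhesion receptors and laminins moved little as a set, with single chains at both ends. Of 35 genes 21 entered, 14 integrins and 7 laminins, through 33 of the 95 probe sets. ITGA3 was the only entering member at least 2-fold higher with CTNNB1 siRNA, against 2.29% of all genes, and ITGAL the only one at least 2-fold lower, against 2.38%. At 1.5-fold, a size chosen after the values were seen, 4 members were higher (ITGA3, ITGB2, LAMB3 and LAMC1), against 11.2% of all genes, and 3 were lower (ITGAL, ITGA2B and ITGA1), against 7.61%. In RNA from whole cultures, fewer cells that express a gene and less RNA per cell cannot be told apart. The median log2 ratio of the 21 genes was 0.15, the same as that of all genes. It was 0.06 for the integrins and 0.35 for the laminins. Among integrins, alpha chains had a median of -0.08, with 3 of 9 above 0, and beta chains 0.37, with 5 of 5 above 0, beside 64% of all genes. All entering beta chains except ITGB3 were at or above the 75th percentile of signal, where 76.1% of all genes lay above 0. The sign of 1 of those 5, ITGB5, was negative in 5 of 10 alternative settings, and that of ITGA6 among the alpha chains in 3. With scaling to a common median ITGA5 (0.04), ITGA10 (0.06) and ITGAE (0.06) were above 0, so the count of alpha chains above 0 depends on the setting.

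**Figure D1:**
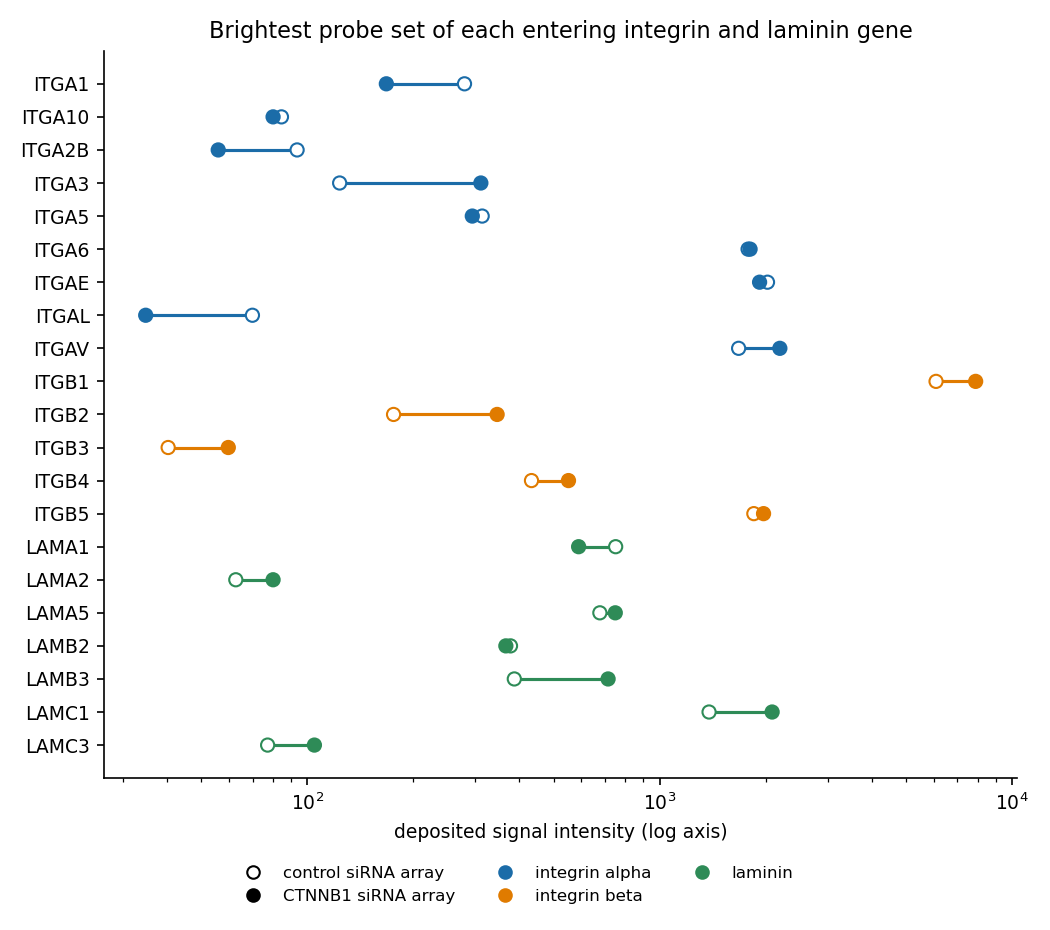
Deposited signal intensity (horizontal log axis) of the brightest probe set of each of the 21 entering genes, open on the control siRNA array and filled on the CTNNB1 siRNA array, coloured by chain type. The bar between the circles is longest for ITGA3, from 123.6 to 311, and signals of different genes are not comparable because each probe set has its own brightness.

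The partner chain shared by most matrix-binding integrins, ITGB1, was read by 4 entering probe sets that did not go one way. The brightest (211945_s_at) read 6091 with control siRNA and 7890 with CTNNB1 siRNA, a log2 ratio of 0.37. The next 2 had larger log2 ratios, 0.69 for 1553678_a_at (3594 and 5805) and 0.78 for 1553530_a_at (3027 and 5213). The dim 216178_x_at read 77.4 and 61.8, a ratio of -0.32. The 3 bright probe sets were thus higher with CTNNB1 siRNA and the dim one lower. After loess, which removes the upward drift of bright genes, the brightest ITGB1 ratio was 0.09, and after quantile normalization 0.14. The other 3 ITGB1 probe sets were under the filter, with signals from 1.1 to 31.9.

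The leukocyte beta chain ITGB2, which pairs with ITGAL, ITGAM, ITGAX and ITGAD, was the beta chain with the largest ratio. Its brightest probe set (202803_s_at) went from 175.8 to 345.9, 1.97-fold higher and just under the 2-fold rule, and 1555349_a_at went from 124.2 to 189.4. Both were higher on the CTNNB1 siRNA array, and the dimmest (236988_x_at) lay under the floor on both. The ratio stayed above 0 in all 10 alternatives, from 0.61 without _x_at and _s_at probe sets to 1.11 with scaling to a common median, the setting in which it passed 2-fold. A probe set annotated to the antisense gene ITGB2-AS1 (229041_s_at) read 202.2 and 245.1.

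ITGB4, the hemidesmosome chain with a long cytoplasmic tail that binds plectin, read 433 and 551.4 at its brightest probe set (204990_s_at). A dimmer one (204989_s_at) read 49.5 and 70.6, and 3 more under the filter, at 36.9 or less, went both ways. Their log2 ratios of 0.35 and 0.51 lay above the median of all genes by less than 1 probe set SD, and the first was 0.13 after quantile normalization. The chain of vitronectin receptors, ITGB5, gave opposite readings. Its brightest probe set (201125_s_at) went from 1851 to 1973, while 201124_at went from 533.2 to 335.1, 214020_x_at from 537 to 456.4 and 214021_x_at from 66.3 to 46.3. The log2 ratios of these 4 ran from -0.67 to 0.09, with 3 below 0, so no direction can be given for the gene. ITGB3, which pairs with ITGAV and with ITGA2B, entered through 1 of 7 probe sets just above the filter (204628_s_at, 40.3 and 59.7), with a ratio of 0.57. Of its dimmer probe sets, 204626_s_at and 216261_at were higher with CTNNB1 siRNA and 204627_s_at and 211579_at lower, so that gene too has no common direction.

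**Figure D2:**
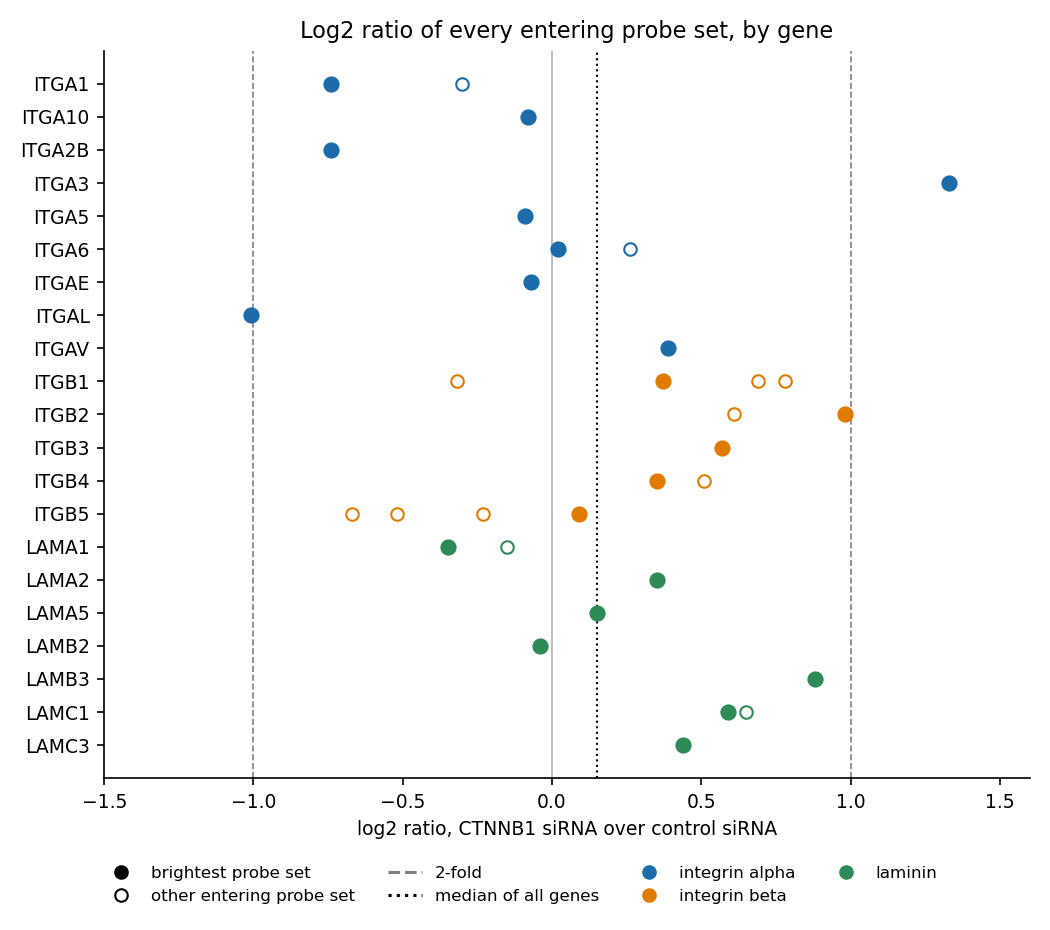
Log2 ratio (horizontal axis, CTNNB1 siRNA over control siRNA) of each of the 33 entering probe sets, by gene, with the brightest probe set of a gene filled and the others open. Dashed lines mark 2-fold and the dotted line the median of all genes, 0.15. ITGA3 lies beyond the upper 2-fold line and ITGAL at the lower one, the open circles of ITGB1 lie on both sides of 0, and those of ITGB5 all lie below 0 while its filled circle is at 0.09.

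Of the chains that bind laminin, ITGA3 had the largest ratio of all members. Its only probe set (201474_s_at) read 123.6 with control siRNA and 311 with CTNNB1 siRNA, 2.52-fold higher and a log2 ratio of 1.33, above 99.2% of all genes. That is 1.24 above the median of its own signal decile. It passed 2-fold in all 9 alternatives in which it entered, from 1.18 to 1.47. Without _x_at and _s_at probe sets the gene was not measured, and no second probe set checks it.

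ITGA6, the other laminin-binding alpha chain of epithelia, showed nearly equal signals. Its brightest probe set (201656_at) read 1783 and 1806, a log2 ratio of 0.02, and 215177_s_at read 405.4 and 484.3, a ratio of 0.26. The sign of the first was negative after quantile normalization (-0.26), loess (-0.24) and centring (-0.13). ITGA3 and ITGA6, which share the partner ITGB1, therefore read 1.33 and 0.02, and no replicate shows how much of that gap would recur. ITGA7, the laminin receptor chain of muscle, did not enter, and its probe sets read 41.1 and 43.9 (209663_s_at) and 19.5 and 53.1 (216331_at).

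The alpha chains ITGAV and ITGA5 belong to receptors of fibronectin and vitronectin. ITGAV, the alpha chain that pairs with ITGB1, ITGB3 and ITGB5 among others, went from 1676 to 2195 (202351_at), a log2 ratio of 0.39 against a median of 0.28 in its signal decile. It was 0.12 after quantile normalization. ITGA5, the fibronectin receptor chain, read 313.7 and 294.1, a ratio of -0.09 that became 0.04 with scaling to a common median. Neither of these 2 alpha chains stood beyond the probe set SD from all genes. ITGA8 did not enter, and its 4 probe sets, at 45.5 or less, all read lower on the CTNNB1 siRNA array. Of all probe sets under the filter 58.8% read lower there, and 242071_x_at (5.4 and 2.8) lay under the floor on both arrays.

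The collagen receptor chain ITGA1 was the only alpha chain at or above the 75th percentile of signal that was at least 1.5-fold lower. Its brightest probe set (226731_at) went from 279.5 to 167.7, 1.67-fold lower with a log2 ratio of -0.74, 0.83 below the median of its signal decile. A second (214660_at) read 122.2 and 99.3, and the dimmest, under the filter (1560359_at), 30 and 19.9. All 3 were lower with CTNNB1 siRNA, although none reached 2-fold, and the ratio stayed below 0 in all 10 alternatives, from -0.89 to -0.52. ITGA10, another collagen receptor chain, read 84.5 and 80. ITGA2, the collagen receptor chain of epithelia and platelets, fell just short of the filter with 50.7 and 43.6 (205032_at) and 50.8 and 30.9 (227314_at). ITGA11 was dimmer still, with signals from 2.6 to 30.1 over 3 probe sets.

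Alpha chains of leukocytes were dim apart from ITGAE. ITGAL, which with ITGB2 forms the receptor for ICAM1 on lymphocytes, went from 69.9 to 34.8 (213475_s_at), 2.01-fold lower. Its call ended after quantile normalization, loess, scaling to a common median and a floor at the median (-0.51), and its second probe set (1554240_a_at) read 7.4 and 6.7. ITGAM, a chain of myeloid cells, did not enter and read 71 and 7 (205785_at) and 40.7 and 12.5 (205786_s_at). Against the floor, the first of these was at least 5.14-fold lower. The chains ITGAX and ITGAD had signals from 6.7 to 17. ITGAE, which holds lymphocytes in epithelia by binding E-cadherin, had a bright probe set (205055_at) with 2024 and 1922, a log2 ratio of -0.07, whereas its partner ITGB7 read 3 and 30.2.

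Markers of other cells were checked beside these chains. Of 7 fibroblast markers 3 entered, COL1A1 (162.5 and 80.3), COL1A2 (58.1 and 61.4) and DCN (80.5 and 86.6). The 3 entering COL1A1 probe sets ran from -1.02 to 0.07 in log2 ratio. Of 5 endothelial markers only PECAM1 entered (96.4 and 80.8), and its 2 entering probe sets ran from -0.25 to 0.33. Of 9 leukocyte markers 7 had a probe set, with brightest signals from 3 to 89.5 and a sum of 333 with control and 270 with CTNNB1 siRNA. The 3 that entered read 62.4 and 46.8 for MS4A1, 89.5 and 82.1 for CD53 and 67.1 and 80.3 for CD14, so CD14 was higher with CTNNB1 siRNA and the others lower. The pan-leukocyte marker PTPRC did not enter (25.9 and 3). CD3D (12.1 and 10.4) lay under the floor on both arrays. The part of leukocyte markers in the ITGB2 and ITGAL values was not tested. The 5 epithelial markers all entered, with signals from 533 to 12013. With CTNNB1 siRNA 4 of them were higher, beside 76.1% of all genes at or above the 75th percentile of signal. Only 2 of the 5 lay above the median of all genes. The E-cadherin gene CDH1 was lower (939.3 and 593.7). The labels call the line squamous. Of 7 squamous markers, TP63 and KRT6A had no probe set with a single symbol and could not be read. Of the 5 with one, only SOX2 entered (60.1 and 41.6). The squamous keratins KRT5 (34.4 and 9.8) and KRT14 (25 and 6.7) read lower with CTNNB1 siRNA, and KRT13 (6.2 and 18.9) and DSG3 (8.8 and 37.5) higher. The platelet chain ITGA2B went from 93.6 to 55.9 (206493_at), a log2 ratio of -0.74, and its other 3 probe sets lay under 5 on both arrays. Of the other platelet genes, GP1BA entered and was also lower (62.3 and 49.6, a log2 ratio of -0.33), while PF4 (7.9 and 8) and PPBP (5.4 and 15) were at or near the floor.

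Genes that did not enter are described together. They were 11 integrins and 3 laminins with 40 probe sets, whose signals ran from 1.7 to 71. Of these probe sets 24 read lower and 15 higher on the CTNNB1 siRNA array, so 60% were lower, beside 58.8% of all 27524 probe sets under the filter. The integrin chains ITGA4 and ITGA9 had no signal above 36.1. Of the 5 ITGB8 probe sets, 1563010_at read 5.4 and 41.5 and the others ran from 2.3 to 35.2 with no common direction.

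**Figure D3:**
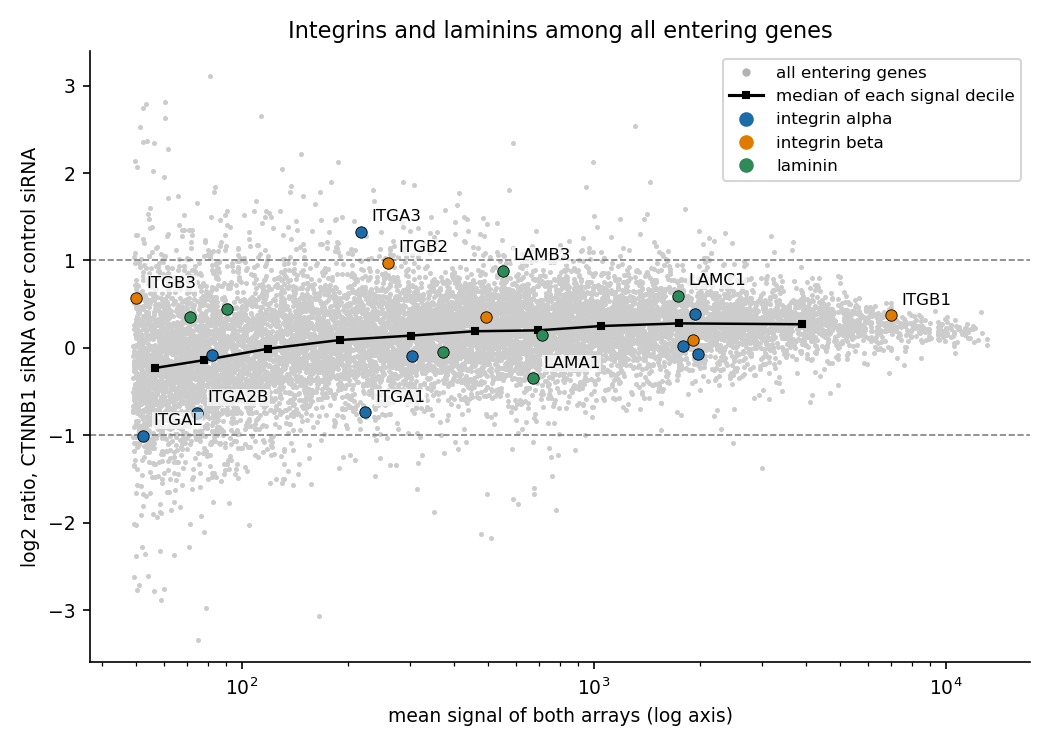
Log2 ratio (vertical axis) against mean signal (horizontal log axis) for all 12531 entering genes in grey, with integrin alpha chains, integrin beta chains and laminins in colour and the median of each signal decile as a black line. The line climbs from -0.23 to 0.27, and ITGA3, ITGB2 and LAMB3 stand above it while ITGA1 and ITGAL stand below it.

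Among laminins, the beta chain of the epithelial anchoring laminin, LAMB3, had the largest ratio. Its only probe set (209270_at) went from 387 to 714.3, 1.85-fold higher with a log2 ratio of 0.88, above 96.6% of all genes and 0.69 above the median of its signal decile. It stayed above 0 in all 10 alternatives, from 0.67 to 1.02, and passed 2-fold only with scaling to a common median.

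LAMC1, the gamma chain of most laminins, was higher in both of its probe sets. The brightest (200771_at) went from 1382 to 2087, a log2 ratio of 0.59, and 200770_s_at from 317.4 to 497.3, a ratio of 0.65. Both probe sets lay more than 1 bright probe set SD above the median of the signal decile of the brighter one, 0.28. The ratio of the first was 0.32 after quantile normalization. LAMC3, a gamma chain of fewer tissues, read 77.2 and 104.8 (219407_s_at), while its dimmer probe set (232558_at) read 45.6 and 17.8.

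Of the other beta chains only LAMB2 entered. LAMB2, found in muscle, nerve and kidney, read 377.5 and 366.2, a log2 ratio of -0.04 that became 0.09 with scaling to a common median. LAMB1 did not enter, with 20.2 and 4.2 (201505_at) and 3.2 on both arrays (211651_s_at), and LAMB4 had no signal above 37.8. Of the 2 beta chains that entered, LAMB3 thus lay above the median of all genes and LAMB2 below it.

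The alpha chains, which carry the sites that integrins bind, ran from -0.35 to 0.35 in log2 ratio over the 3 that entered. LAMA5, the widespread alpha chain of adult epithelia, read 676.9 and 748.6, a log2 ratio of 0.15 that equals the median of all genes. LAMA1, a chain mainly of embryonic basement membrane, was lower in both probe sets, 750.5 and 589.2 (227048_at) and 61.1 and 55 (222346_at), with ratios of -0.35 and -0.15. It lay 0.55 below the median of its signal decile and below 0 in all 10 alternatives, from -0.58 to -0.21. LAMA2, the muscle chain, read 62.7 and 80, and its other 3 probe sets did not exceed 49.6. LAMA4, a chain of vessels and mesenchyme, did not enter, and its brightest probe set (210989_at) read 46 and 15.6.

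**Figure D4:**
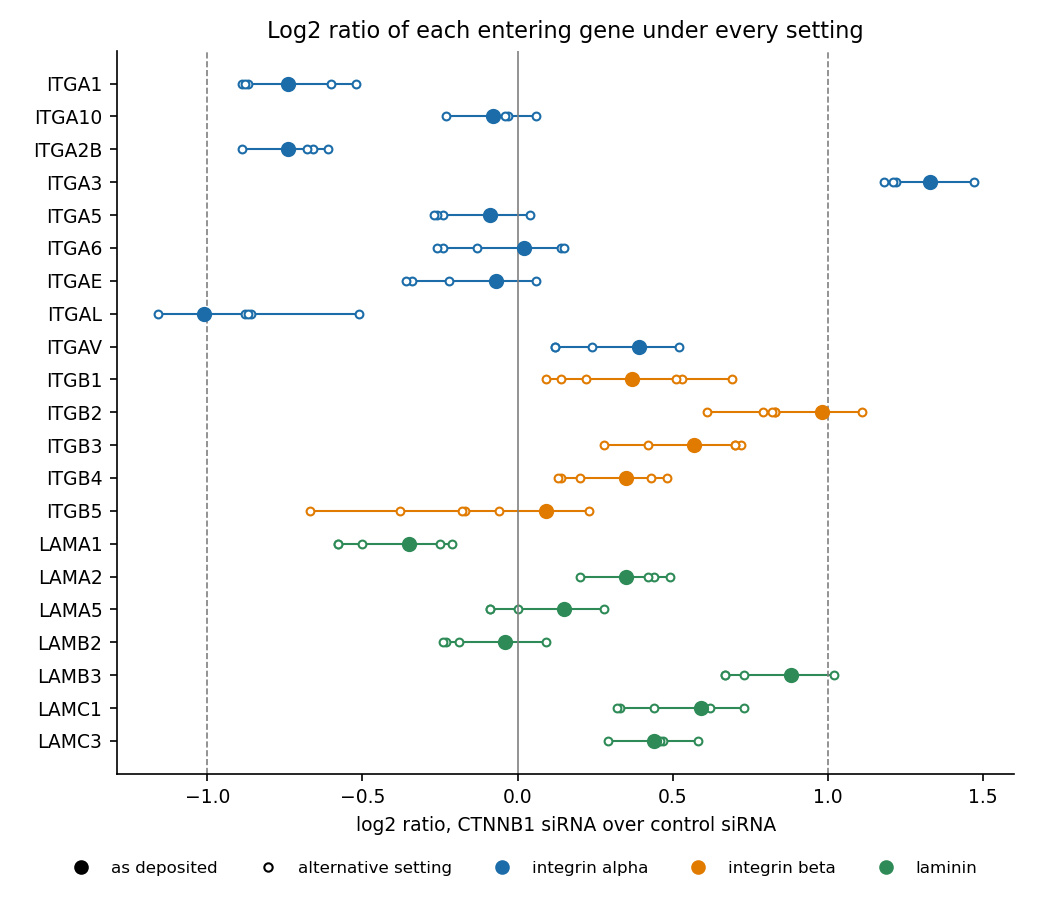
Log2 ratio of each of the 21 entering genes as deposited (filled) and under up to 10 alternative settings (open), with a line over their range. ITGA3, ITGB2, LAMB3 and LAMC1 stay to the right of 0 and ITGA1, ITGA2B, ITGAL and LAMA1 to the left, while ITGB5 runs from -0.67 to 0.23.

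Genes that act with integrins and laminins were described by 6 lists. The list of other laminin receptors and hemidesmosome genes had the highest median, 0.64, with 7 of 8 entering genes above the median of all genes and 5 at least 1.5-fold higher, beside 11.2% of all genes. CD44, a receptor for hyaluronan that also works beside integrins, was 2.69-fold higher (61.6 and 166 at 204489_s_at), although another of its entering probe sets (204490_s_at) read 51.9 and 56.4. The syndecans SDC1 (195.6 and 385.7) and SDC4 (423.3 and 686.1), heparan sulfate coreceptors, and the hemidesmosome linker PLEC (346.4 and 557.8) had log2 ratios of 0.98, 0.70 and 0.69. Without _x_at and _s_at probe sets SDC1 was 0.41. BCAM, the remaining gene at least 1.5-fold higher, had log2 ratios of 0.59 and 0.11 in its 2 entering probe sets. Of the 8 entering genes of this list only CD44 passed 2-fold, and the list was drawn up with earlier results of these arrays known. The list held 13 genes, of which DAG1, RPSA and COL17A1 had no probe set with a single symbol and KRT5 and KRT14 did not enter. The hemidesmosome gene DST was at -0.14, with 7 entering probe sets from -0.75 to 0.31. The list median thus rests on part of these genes.

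Tetraspanins and other surface partners followed with a median of 0.44 and 8 of 10 genes above the median of all genes, 0.15. None passed 2-fold, beside 2.29% of all genes higher and 2.38% lower, and 10 genes are too few to set against these shares. Bright genes read higher as a whole, with medians of 0.28 and 0.27 in signal deciles 9 and 10. CD63, at 0.24, counted as above 0.15 but lay under both of these medians. The list was not compared with genes of like signal. SLC3A2, the chain of amino acid transporters that binds beta integrins, went from 1443 to 2742, a log2 ratio of 0.93. TSPAN4 (0.89) and CD9 (0.69) were higher and CD82 (-0.69) lower. CD151, the tetraspanin partner of ITGA3, read 395.4 and 547.9, a ratio of 0.47, and was counted in the laminin receptor list as well.

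Basement membrane partners of laminin had a median of 0.25 over 12 genes, of which 1 was at least 2-fold higher and 0 lower, beside 2.29% and 2.38% of all genes, a count too small to describe the list. That gene was COL4A2, a chain of the collagen IV network, at 3.72-fold (121.3 and 450.7), with 57.7 and 96.6 in its second probe set (211966_at). COL4A1, which shares a trimer with it, went from 1163 to 2053 (211980_at) and from 230 to 548.3 (211981_at). Both probe sets of each of these chains were therefore higher with CTNNB1 siRNA. The heparan sulfate proteoglycan HSPG2 (0.53) and the netrin NTN4 (0.51), a laminin-related protein, came next. The laminin-collagen linkers NID1 and NID2 did not enter.

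The focal adhesion core, which ties integrin tails to actin, had a median of 0.18 over 28 genes, close to that of all genes, with 1 past 2-fold upward and 1 downward, beside 2.29% and 2.38% of all genes. The scaffold PXN went from 633.4 to 1350, 2.13-fold higher, but had a log2 ratio of 0.84 after quantile normalization, under the rule, as in 3 of its 10 alternatives in all. The focal adhesion kinase PTK2 was higher in its 4 entering probe sets, with ratios from 0.47 to 0.90 (1836 and 2931 at the brightest). The kinase SRC, read by a dim probe set (80.7 and 39.7), was 2.03-fold lower, a call that ended in 4 of its 8 alternatives, and LIMS2 had a ratio of -0.77.

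Other integrin ligands and regulators of integrin activation went both ways. The ligands had a median of 0.11 over 8 genes, and MFGE8, a ligand of ITGAV receptors, was 2.84-fold higher (520.2 and 1475 at 210605_s_at), while its second probe set read 62.9 and 67.7. FBLN5 (0.99), NPNT (-0.76) and FGA (0.55) followed in size. The fibronectin gene FN1, named outside the rule after its values were seen, read 150.4 and 110.6 at its brightest probe set (210495_x_at), and 4 of its 5 entering probe sets were lower with CTNNB1 siRNA, from -0.44 to -2.74 (109.5 and 16.4 at 211719_x_at). The other, 1558199_at, read 58 and 75.3. Regulators of activation and traffic had a median of 0.20 over 11 genes. APBB1IP, which links RAP1 to talin, was 2.92-fold lower at a dim probe set (88.3 and 30.2), whereas its next probe set (219994_at) read 36.9 and 33.5. RAB11A (0.77) and RAB21 (0.59), which return integrins to the surface or take them in, were higher and the endocytic adaptor DAB2 (-0.69) lower, although RAB11A was 0.16 without _x_at and _s_at probe sets and DAB2 -0.25 with the median over probe sets, and the 4 RAB21 probe sets ran from -0.54 to 0.59.

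**Figure D5:**
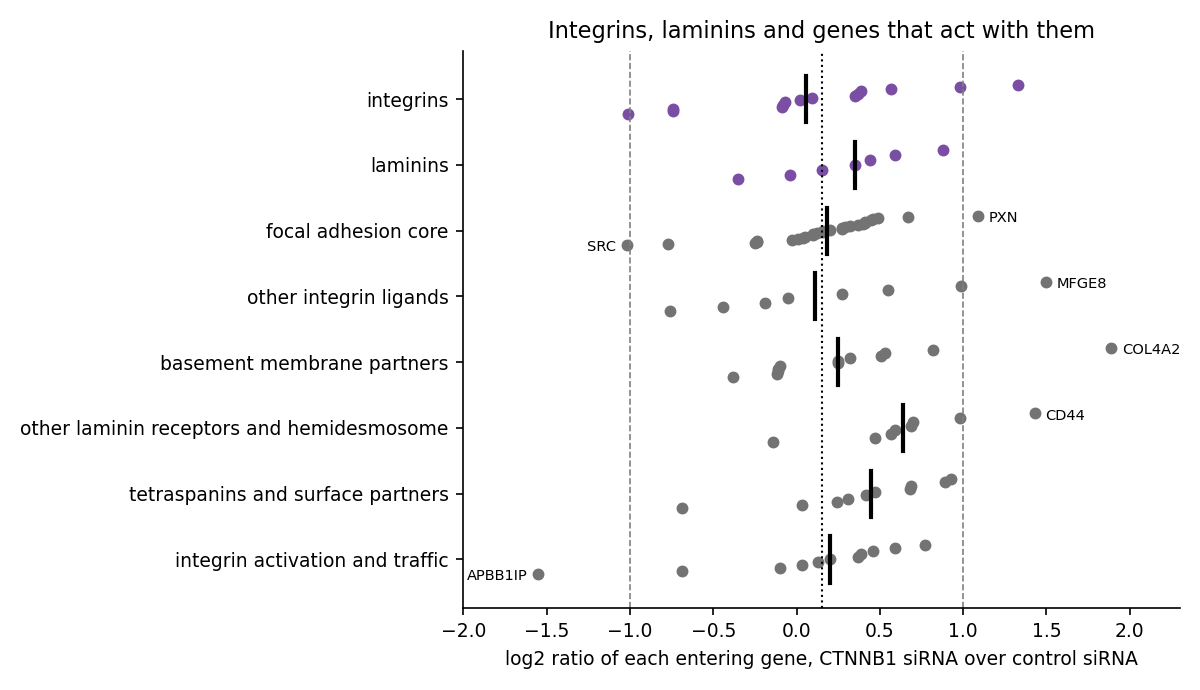
Log2 ratio (horizontal axis) of each entering gene in the 2 families and in the 6 lists of genes that act with them, with a black bar at each median, a dotted line at the median of all genes (0.15) and dashed lines at 2-fold. The laminin receptor and hemidesmosome list has its median at 0.64, and in the 6 lists the genes past 2-fold are labelled by name.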

How the data were processed

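The deposited table held 1 linear signal intensity per probe set and array, made by the authors with MAS5, per the submitters' processing notes; its version, target intensity, scaling and detection calls: not given in the sources used here. GEO's annotation of the platform gave 41097 of 54675 a single symbol, 1801 several and 11777 none, and 41043 of the single symbols were matched to RefSeq names by Entrez number. Log2 ratios of the CTNNB1 siRNA array over the control array were taken from the deposited values as they stand, with Python 3.11.15, numpy 2.4.6 and pandas 2.3.3 (loess from statsmodels 0.14.6, span 0.3). Every member was named, and of each list up to 4 entering genes with the largest absolute ratio. BCAM, CD151, DST, NID1, NID2, FN1 and the markers printed were chosen outside that rule after their values were seen. Genes that could not be read were named for the laminin receptor list and the squamous markers. The calculations were tested on simulated arrays. The 10 alternatives were 4 normalizations, 2 floors, 2 filters and 2 choices of probe set. Members, gene lists and alternatives were chosen with earlier results of these data known. With 2 arrays, their number limits the precision.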

Additional observations from a re-analysis of the deposited data

How the results depend on the processing

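Of the 21 entering members, 14 kept the sign of their log2 ratio in every alternative in which they were measured, and 7 did not (ITGA5, ITGA6, ITGA10, ITGAE, ITGB5, LAMA5 and LAMB2). The median log2 ratio of all genes, 0.15 as deposited, was -0.03 after quantile normalization, -0.02 after loess and 0.29 with scaling to a common median. The integrin median ran from -0.11 to 0.22 and the laminin median from 0.15 to 0.59. With scaling to a common median, 2 integrins (ITGA3 and ITGB2) and 1 laminin (LAMB3) were at least 2-fold higher, and 472 of all genes were higher and 183 lower. Centring on the median ratio gave 163 higher and 448 lower genes. With no filter, 3 integrins were higher (ITGA3, ITGA11 and ITGB7), 2 lower (ITGAL and ITGAM) and 1 laminin lower (LAMA4), beside 722 higher and 1275 lower of 19775 genes. Without _x_at and _s_at probe sets 0 integrins passed in either direction, since ITGA3 and ITGAL were not measured. No integrin was lower (0) after quantile normalization, loess, scaling to a common median, the floor at the median, where 160 of all genes were lower, or the filter at the 75th percentile, which left 139 higher and 34 lower of 7913 genes. ITGAL was not measured at that filter, and the floor at the median raised its CTNNB1 siRNA signal from 34.8 to 49.1. The cause of these changes was not tested, apart from the smaller or larger number of genes measured and the raised ITGAL signal. No replicate could be left out, since each group had 1 array. No paired analysis was possible because each group had 1 array.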
